A study of Mus musculus with 14 samples.

Results

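The genes described here are 34 genes of glucose transport, glycolysis, lactate handling and the pentose phosphate pathway, measured by RNA-seq in mouse lung adenocarcinomas with or without Setd2. They were chosen by symbol from the 52550 genes of the table, by their place in these pathways, and comprise 2 glucose transporters, 4 genes of hexose phosphorylation and its isomerase, 7 of the phosphofructokinase step, 9 of the triose steps to pyruvate, 4 of lactate handling, 3 pyruvate dehydrogenase kinases, 4 of the pentose phosphate pathway and the regulator Hif1a. All 34 passed the filter on low counts, which left 16836 genes to test. The symbol Aldoa also belongs to a second gene model (ENSMUSG00000114515), which had at most 0.467 CPM (counts scaled to sequencing depth, the unit of levels used throughout), did not pass that filter and was not counted as a member.

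The RNA came from 6 KPY-Ctrl and 8 KPY-Setd2KO tumors. Mice of both groups shared their engineered background, which included p53 flox/flox and a Rosa26 LSL-YFP reporter on a mixed strain background, both sexes were used, and tumors were started by a lentiviral vector that delivers Cre and Cas9 with a guide against Setd2 in KPY-Setd2KO or a control guide in KPY-Ctrl. The study's methods describe dissected tumors sorted for live cells with yellow fluorescent protein (YFP), whereas the deposited labels mention cell lines and other kits, and this conflict was not resolved. The mouse and its age are not given per tumor, some tumors shared a mouse, and all tests treated tumors as independent. The p-values therefore measure the spread between these tumors and not between mice. Since the guide was given per mouse, they may be too small.

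Glucose enters cells through facilitative transporters, is trapped as glucose 6-phosphate by hexokinases, committed to glycolysis at phosphofructokinase, and converted through the triose phosphates to pyruvate. Lactate dehydrogenase turns pyruvate into lactate, which leaves the cell by monocarboxylate transporters, while pyruvate dehydrogenase kinases restrain the entry of pyruvate into mitochondria. The pentose phosphate pathway draws glucose 6-phosphate away from glycolysis to make NADPH and ribose, and several glycolytic genes are known targets of the hypoxia-inducible factor whose alpha subunit is Hif1a. Many steps have several isozymes, and macrophages and epithelial cells are known to use different ones.

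Total counts lay between 27866266 and 51828846 in KPY-Ctrl and between 20072236 and 40604404 in KPY-Setd2KO. Setd2, the targeted gene, had a log2 fold change of -0.74 (standard error 0.22, adjusted p = 0.175 in the quasi-likelihood test of edgeR). The adjusted p was 0.0675 in DESeq2, and a two-sided exact permutation test over 3003 splits gave an unadjusted p of 0.00466. With the leukocyte-marker score defined below in the model, the log2 fold change was -0.84 (adjusted p = 0.0261 in edgeR and 0.00314 in DESeq2). The 8 KPY-Setd2KO tumors, at 17.9 to 47.4 CPM, overlapped the KPY-Ctrl tumors, at 41.9 to 63.6 CPM. A guide that breaks the reading frame need not remove the transcript, so these levels check the labels only in part. Leukocyte-marker RNA set tumors apart within both genotypes. A score, the mean log2 CPM of 16 leukocyte genes, lay between 7.68 and 8.49 in KPY-Ctrl replicates 1, 2 and 6 and KPY-Setd2KO replicates 1 to 4, and between 2.76 and 4.95 in the other 7 tumors. All 16 markers were tested, none was at 0 in every tumor, and their summed level ran from 577 to 9645 CPM in KPY-Ctrl and from 302 to 12763 CPM in KPY-Setd2KO. The 14 macrophage markers summed to 525 to 38868 CPM and 372 to 67316 CPM, the 13 epithelial markers to 14215 to 63210 CPM and 6003 to 50732 CPM, and the 7 T and B cell markers to only 5.44 to 15.1 CPM and 4.23 to 21.0 CPM. Mean scores of the genotypes differed by 0.36 (two-sided exact permutation test over 3003 splits, p = 0.719). In these bulk samples, fewer cells of a type and less RNA per cell cannot be told apart.

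Per kilobase of exon, the members spanned a wide range of levels. The length counted every annotated exon base of a gene once, over all its transcripts. Levels per kilobase and their order between genes therefore depend on the annotation. Gapdh, the glyceraldehyde phosphate dehydrogenase, was the highest at a mean of 752 CPM per kb over the 14 tumors, followed by Aldoa at 435, Ldha at 332 and Pkm at 271 CPM per kb. The lowest were Eno2 at 0.207, Slc2a3 at 1.25, Pfkfb2 at 1.61, Pfkm at 3.19 and Pfkfb3 at 3.37 CPM per kb. The main route from aldolase to lactate was thus represented by Aldoa, Tpi1 (162 CPM per kb), Gapdh, Pgk1 (111), Pgam1 (142), Eno1 (131), Pkm and Ldha. Tumors differed least in Slc16a1, with a highest level 1.72 times the lowest, Pkm (1.87 times), Gpi1 (1.93 times) and Gapdh (1.96 times). They differed most in Fbp1 (243 times) and Hk3 (95.7 times).

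**Figure D1:**
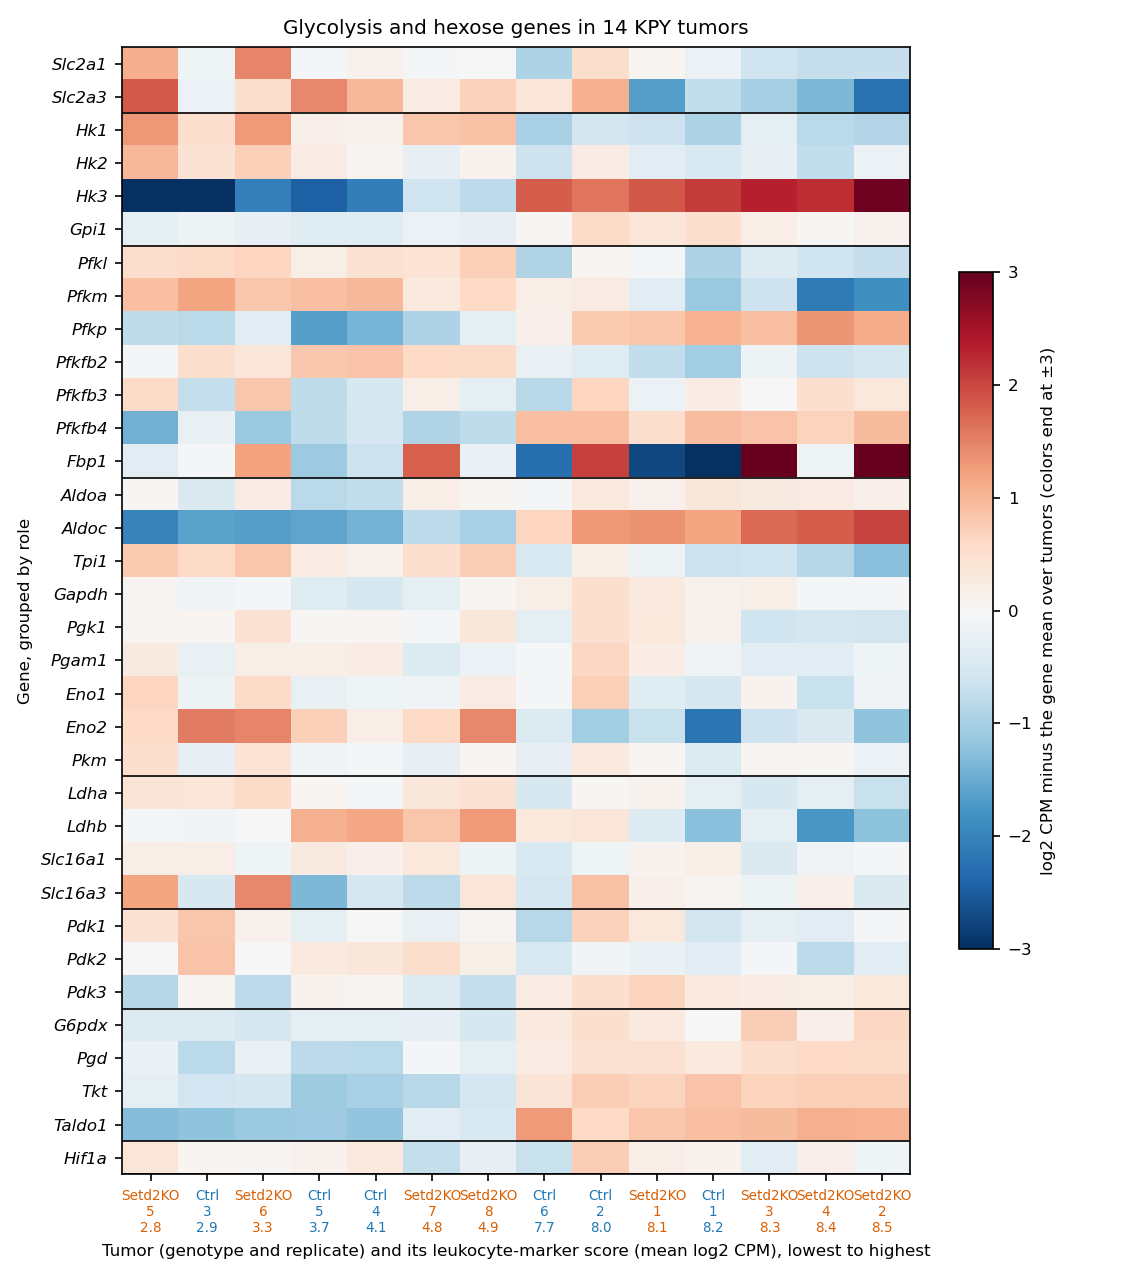
Each row is 1 of the 34 genes, grouped by role between black lines, and each column is 1 of the 14 tumors, ordered from the lowest to the highest leukocyte-marker score (number under each tumor, mean log2 CPM), with KPY-Ctrl labels in blue and KPY-Setd2KO labels in orange. Colors give log2 CPM minus the mean of the gene, and Hk3, Aldoc, Pfkp, Pfkfb4 and the 4 pentose phosphate genes are higher in the 7 right-hand columns than in the 7 left-hand columns.

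The first comparison asked which of these genes differed between KPY-Setd2KO and KPY-Ctrl tumors. None of the 34 had an adjusted p under 0.05 in the quasi-likelihood test of edgeR, as none of the 16836 genes did (0.0%). At an unadjusted p under 0.05, none of the 34 and 2311 of all genes passed (13.7%). DESeq2 called none of the 34 and 688 of all genes (1.96%), and limma voom none of either. With quality weights for libraries, limma voom called 14 of the 34, beside 49.5% of all genes, and the signs of 10 members turned. The log2 fold changes were above 0 in 21 members and below 0 in 13, with a median of 0.11, beside 0.03 over all genes tested. When counts were scaled by library size alone, the median over all genes was -0.11 and that over members -0.02. No member separated the genotypes, since the ranges of the 2 groups overlapped for all 34. How many of all genes had separate ranges was not counted, so this count has no background share.

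The smallest p belonged to Pfkfb3 (ENSMUSG00000026773.19, chromosome 2, 11471433 to 11554077 on the minus strand of GRCm38), a kinase that makes fructose 2,6-bisphosphate, the activator of phosphofructokinase. The 6 KPY-Ctrl tumors had 13.3 to 37.3 CPM of Pfkfb3 with a median of 15.8, and the 8 KPY-Setd2KO tumors had 19.5 to 42.1 CPM with a median of 28.3. KPY-Ctrl replicates 1 and 2 lay among the KPY-Setd2KO tumors, while the other 4 KPY-Ctrl tumors lay below all of them. The log2 fold change of Pfkfb3 was 0.49 (standard error 0.27, adjusted p = 0.448 in the quasi-likelihood test of edgeR). Fbp1, the fructose bisphosphatase that opposes phosphofructokinase, was the only member with an absolute log2 fold change over 1. It ranged from 0.215 to 19.6 CPM in KPY-Ctrl (median 2.57) and from 0.668 to 52.2 CPM in KPY-Setd2KO (median 7.61). Its highest values were in KPY-Setd2KO replicates 3 and 2 and KPY-Ctrl replicate 2, so each genotype held high and low tumors. The log2 fold change of Fbp1 was 1.70 with a standard error of 1.01 (adjusted p = 0.494 in the same test), and it ran from 1.17 without KPY-Setd2KO replicate 3 to 2.91 without KPY-Ctrl replicate 2.

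Aldoa, the aldolase of muscle and most tumors (ENSMUSG00000030695.15, chromosome 7, 126795234 to 126800751, minus strand), was even among KPY-Setd2KO tumors, at 1277 to 1494 CPM with a median of 1393. Among KPY-Ctrl tumors it ran from 700.2 to 1553 CPM with a median of 1053, with KPY-Ctrl replicates 3 to 6 below every KPY-Setd2KO tumor and replicates 1 and 2 above all of them. The mean log2 CPM was higher by 0.41 in KPY-Setd2KO, with an exact p of 0.0403 (permutation of the tumors, two-sided, 3003 splits). Aldoa was the only one of the 34 members under 0.05 in that test before any adjustment. The exact test was not run over all genes, so this count has no background share. edgeR's quasi-likelihood test gave Aldoa a log2 fold change of 0.34 (standard error 0.20, adjusted p = 0.494).

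In the remaining roles the smallest p values were likewise far from the threshold. Slc2a1, the widespread glucose transporter GLUT1, had medians of 86.1 CPM in KPY-Ctrl and 89.6 CPM in KPY-Setd2KO, with KPY-Setd2KO replicates 5 and 6 at 192 and 253 CPM above all other tumors. Its log2 fold change was 0.33 (standard error 0.37), and ran from 0.036 without KPY-Setd2KO replicate 6 to 0.47 without KPY-Ctrl replicate 2. Slc16a3, the lactate exporter MCT4, ran from 14.3 to 67.9 CPM in KPY-Ctrl (median 26.1) and from 21.5 to 99.4 CPM in KPY-Setd2KO (median 40.6). The same pair of KPY-Setd2KO tumors, replicates 5 and 6, were the highest for Slc16a3, and its log2 fold change was 0.57 (standard error 0.40, adjusted p = 0.578 in the quasi-likelihood test of edgeR), with 0.34 and 0.91 without the same 2 tumors as for Slc2a1, KPY-Setd2KO replicate 6 and KPY-Ctrl replicate 2. Pdk3, a pyruvate dehydrogenase kinase, varied little in KPY-Ctrl, with a median of 36.3 CPM and a highest value of 45.4 CPM, and more in KPY-Setd2KO, from 17.9 to 51.3 CPM. KPY-Setd2KO replicates 5 to 8 lay below every KPY-Ctrl tumor and KPY-Setd2KO replicate 1 above every one, and the log2 fold change was -0.29 (standard error 0.24). Pgd, the phosphogluconate dehydrogenase, ran from 204 to 497 CPM and from 293 to 542 CPM, with a log2 fold change of 0.34 (standard error 0.27). Hif1a overlapped almost fully, at 75.5 to 199.9 CPM in KPY-Ctrl and 73.0 to 153 CPM in KPY-Setd2KO, with a log2 fold change of -0.21 (standard error 0.21).

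Once the leukocyte-marker score entered the model, 1 of the 34 members was called between the genotypes, beside 927 of all genes (5.51%). That member was Hk1 (ENSMUSG00000037012.18, chromosome 10, 62268855 to 62379908, minus strand), the hexokinase of most tissues, which binds to mitochondria. Hk1 ran from 30.2 to 83.4 CPM in KPY-Ctrl with a median of 52.2 and from 32.4 to 145 CPM in KPY-Setd2KO with a median of 77.5. KPY-Setd2KO replicates 5 to 8, at 106 to 145 CPM, lay above every KPY-Ctrl tumor, and KPY-Setd2KO replicates 1 to 4, at 32.4 to 49.2 CPM, lay within the KPY-Ctrl range. Its log2 fold change was 0.64 (standard error 0.41, adjusted p = 0.541) on genotype alone and 0.61 (standard error 0.14, adjusted p = 0.0276) with the covariate in the quasi-likelihood test of edgeR, so the size was alike and the standard error smaller. Its adjusted p stayed under 0.05 in 11 of the 14 fits that left out 1 tumor, and was 0.0742 without KPY-Ctrl replicate 4, 0.0721 without KPY-Ctrl replicate 5 and 0.0563 without KPY-Setd2KO replicate 6 in edgeR, where all 14 log2 fold changes lay between 0.56 and 0.72. DESeq2 with the covariate called 3 of the 34, beside 6.38% of all genes. Besides Hk1, these were Pgd with a log2 fold change of 0.34 (adjusted p = 0.0387) and Pfkfb4, a paralogue of Pfkfb3, with -0.51 (adjusted p = 0.0225 in DESeq2 and 0.0523 in edgeR). At an unadjusted p under 0.05 with the covariate, 6 of the 34 members (17.6%) and 23.9% of all genes passed in edgeR, the other three being Hk3 (0.41), Aldoa (0.36) and Pdk3 (-0.43). The share of members was therefore below the background on this count.

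**Figure D2:**
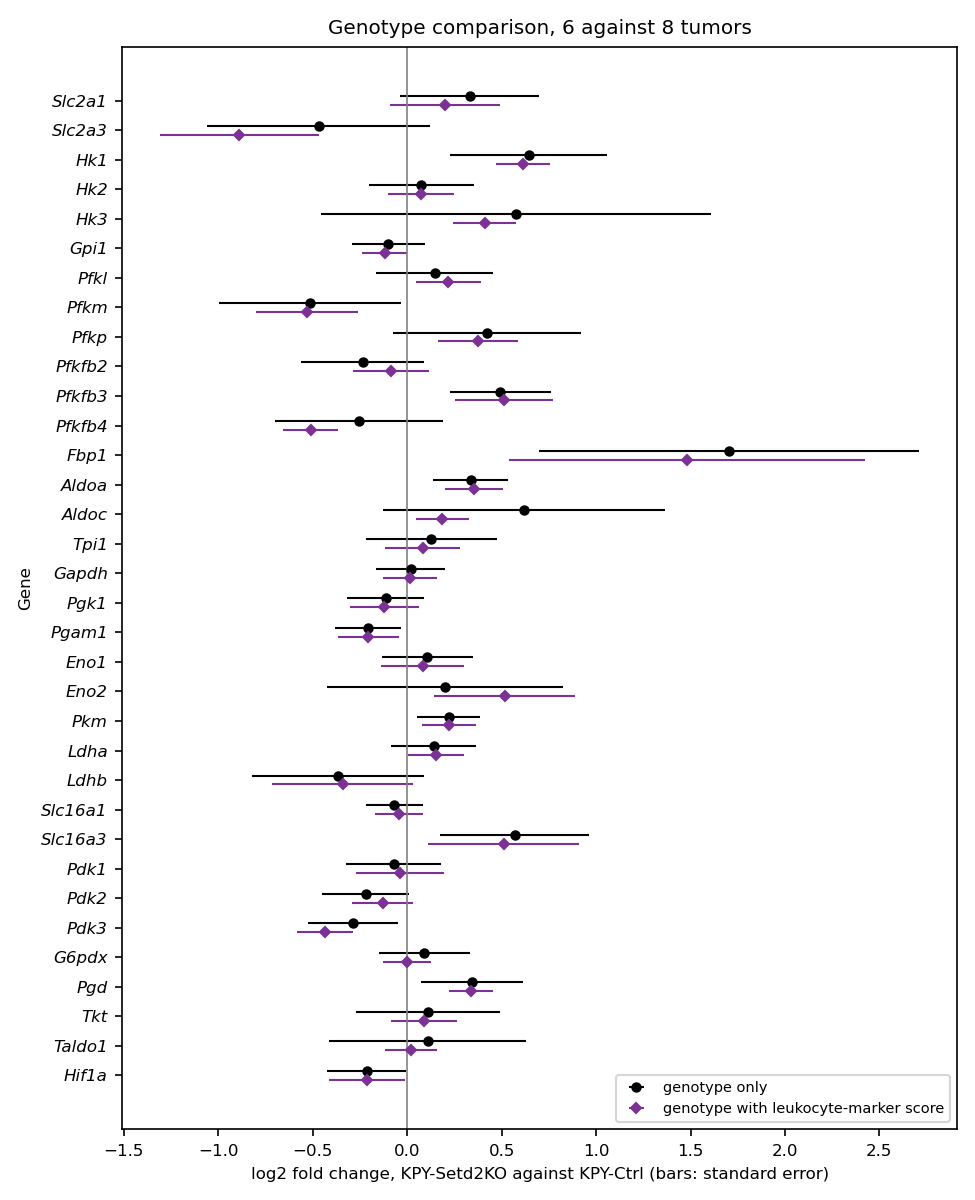
The horizontal axis gives the log2 fold change of KPY-Setd2KO against KPY-Ctrl for each of the 34 genes on the vertical axis, with bars of 1 standard error, from genotype alone (black circles) and with the leukocyte-marker score in the model (purple diamonds), over 6 and 8 tumors. The bars of Hk1, Hk3, Aldoc, Pfkp and Taldo1 shorten with the covariate, and Hk1 at 0.61 is the only gene past an adjusted p of 0.05 in edgeR.

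The second comparison asked how each member moved with the leukocyte-marker score among tumors of the same genotype. The slope is the log2 change per unit of the score, in a model that holds genotype. Of the 34 members, 23 (67.6%) passed at an adjusted p of 0.05 (edgeR, quasi-likelihood), beside 9603 of all genes (57.0%). Among members 11 rose and 12 fell, where 28.5% of all genes rose and 28.6% fell. The median slope was -0.04 over members and -0.01 over all genes. Scaling by library size gave 9 members that rose and 17 that fell, and 3150 and 6778 of all genes, with the sign of Pfkfb3 and Gapdh turned. Because the scores fell into separate ranges, the slope mostly describes the distance between them. No member is in the marker list. Along the same score, 11 of the 14 macrophage markers rose, all 13 epithelial markers fell, and 4 of the 6 proliferation markers rose, and how much of each slope comes from RNA of leukocytes in the sorted samples was not tested.

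Within the hexokinases the isozymes went opposite ways. Hk3, the hexokinase known from myeloid cells (ENSMUSG00000025877.14, chromosome 13, 55005985 to 55021385, minus strand), had the steepest slope of the members at 0.98 (standard error 0.04, adjusted p = 9.55e-11). It was at 39.0 to 96.9 CPM in the 7 tumors with scores above 7 and at 1.01 to 8.46 CPM in the others, a range that left a wide gap. Hk1 fell with a slope of -0.32 (standard error 0.03, adjusted p = 9.68e-07), and Hk2, the inducible hexokinase of muscle and many tumors, fell with -0.17 (standard error 0.04, adjusted p = 0.00137). Hk2 measured 52.1 to 173 CPM over all tumors and overlapped between the tumors with high and low scores. Gpi1, the isomerase that follows hexokinase, rose with a small slope of 0.11 (adjusted p = 0.00162), which was 0.044 and did not pass with library size scaling (adjusted p = 0.17 in edgeR).

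The phosphofructokinases split in the same manner. Pfkp, the platelet form, rose with a slope of 0.37 (standard error 0.05, adjusted p = 1.07e-05), while Pfkl, the liver form, fell with -0.21 and Pfkm, the muscle form, with -0.34 (adjusted p = 0.000303 and 0.000315 in the quasi-likelihood test of edgeR). Pfkp ranged from 35.7 to 281 CPM and its lowest value in a tumor with a score above 7, 125 CPM in KPY-Ctrl replicate 6, was above its highest value in the others, 91.4 CPM in KPY-Setd2KO replicate 8. Pfkl ranged from 79.0 to 246 CPM, and KPY-Ctrl replicate 2 and KPY-Setd2KO replicate 1, at 154 and 146 CPM, came nearest to the lowest value of the low-score tumors, 169.6 CPM. Of the fructose 2,6-bisphosphate enzymes, Pfkfb4 rose with 0.35 (adjusted p = 4.36e-07) and Pfkfb2 fell with -0.22 (adjusted p = 0.000977), while Pfkfb3 had a slope of 0.04 (adjusted p = 0.601). Fbp1 had a slope of 0.29 with a standard error of 0.20 (adjusted p = 0.223), and 0.076 without KPY-Ctrl replicate 2.

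Of the 9 genes from aldolase to pyruvate, 2 rose, 2 fell and 5 did not pass. Aldoc, the aldolase known from brain (ENSMUSG00000017390.15, chromosome 11, 78322968 to 78327781, plus strand), rose with a slope of 0.64 (standard error 0.03, adjusted p = 6.18e-10). Its values were 90.1 to 232 CPM in the 7 tumors with high scores and 14.2 to 33.4 CPM in the other 7. Aldoa passed narrowly with 0.08 (adjusted p = 0.0431), which rose to 0.0501 to 0.0976 in 10 of the 14 edgeR fits without 1 tumor, and its slope was 0.01 with library size scaling. Tpi1, the triose phosphate isomerase, fell with -0.23 (adjusted p = 0.000432) and Eno2, the neuronal enolase, with -0.45 (adjusted p = 0.000383), though Eno2 was at only 5 to 106 counts per tumor. The slopes of the abundant Gapdh, Pgk1, Pgam1, Eno1 and Pkm lay between -0.06 and 0.06. Both lactate dehydrogenases fell, Ldha with -0.13 (adjusted p = 0.00307) and Ldhb with -0.24 (adjusted p = 0.0377, and 0.0533 to 0.083 in 7 of the 14 edgeR fits without 1 tumor), and the lactate transporters Slc16a1 and Slc16a3 had slopes of -0.05 each and did not pass. Both glucose transporters fell, Slc2a1 with -0.18 (adjusted p = 0.021, and 0.0506 and 0.0503 without KPY-Setd2KO replicate 2 and replicate 4) and Slc2a3, known from neurons and leukocytes, with -0.37 (adjusted p = 0.0039).

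All 4 pentose phosphate genes rose. Taldo1, the transaldolase, had a slope of 0.43 (standard error 0.03, adjusted p = 3.93e-08), Tkt, the transketolase, 0.27 (adjusted p = 3.07e-05), Pgd 0.19 (adjusted p = 1.66e-05) and G6pdx, the glucose 6-phosphate dehydrogenase at the entry of the pathway, 0.16 (adjusted p = 0.000148). Taldo1 was at 420.1 to 672 CPM in the 7 tumors with high scores and at 112 to 223 CPM in the other 7. Tkt separated the same tumors, with 491 CPM or more in the former and 305 CPM or less in the latter. Among the pyruvate dehydrogenase kinases, Pdk3 rose with 0.16 (adjusted p = 0.000988), Pdk2 fell with -0.13 (adjusted p = 0.0048) and Pdk1 had -0.07 (adjusted p = 0.25). The slope of Hif1a was -0.002 (adjusted p = 0.972).

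**Figure D3:**
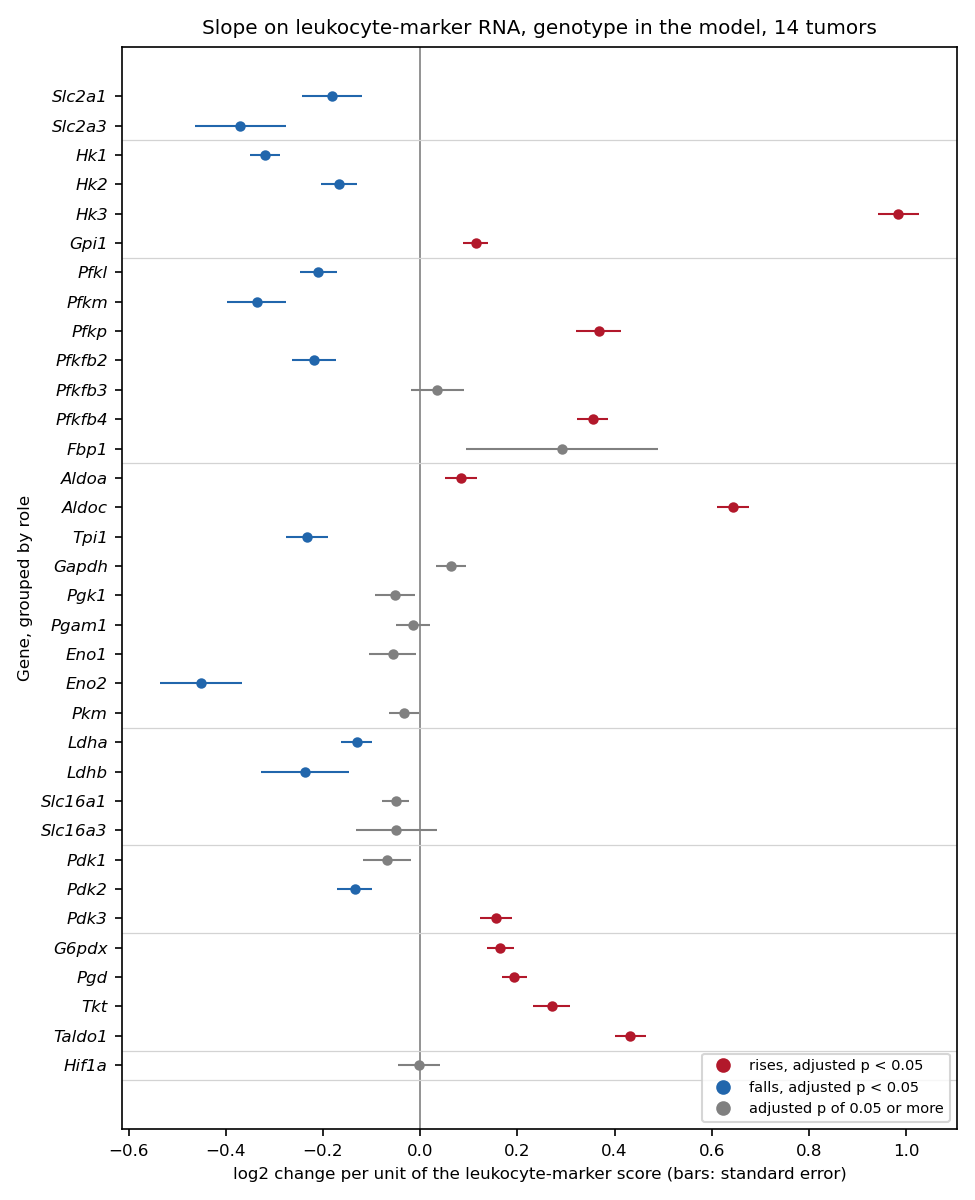
The horizontal axis is the log2 change in expression per unit of the leukocyte-marker score, with genotype in the model and bars of 1 standard error, for the 34 genes grouped by role on the vertical axis, over 14 tumors. Red genes rise and blue genes fall at an adjusted p under 0.05 and grey genes do not pass, and the steepest are Hk3 at 0.98 and Eno2 at -0.45.

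Whether the slopes themselves differed between genotypes was tested with an interaction term. None of the 34 members passed in edgeR, beside 64 of all genes (0.38%), and 9 members (26.5%) did at an unadjusted p under 0.05, beside 11.5% of all genes. The smallest of these p-values belonged to Slc16a3 (0.00349), Pdk3 (0.00396) and Aldoa (0.00615), with adjusted p-values of 0.150 or more in the quasi-likelihood test of edgeR. Hk1 was also among the 9, at -0.14 (unadjusted p = 0.0233, adjusted p = 0.327 in the same test). Its genotype change of 0.61 with the covariate assumes equal slopes in both genotypes.

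Ratios of isozymes within a tumor do not depend on how tumors are scaled to each other, and 7 were compared per kilobase of exon. The lengths cover all annotated exons, for example 13401 bases for Pfkp and 6675 for Pfkl. The size of a ratio, and which isozyme exceeds the other, therefore depend on the annotation. Differences in a ratio between tumors do not. None differed between genotypes after adjustment (two-sided exact permutation tests over 3003 splits, smallest Benjamini-Hochberg adjusted p = 0.354). The smallest raw p was that of Slc2a1 to Slc2a3, which was higher by 1.04 on the log2 scale in KPY-Setd2KO (exact p = 0.0549). Slc2a1 exceeded Slc2a3 by 9.99-fold in KPY-Ctrl replicate 5 and by 91.0-fold in KPY-Setd2KO replicate 1. Hk2 to Hk1 was lower by 0.48 on the log2 scale (exact p = 0.101), from 3.66-fold in KPY-Ctrl replicate 2 down to 0.986-fold in KPY-Setd2KO replicate 7. The 4 tumors with the lowest Hk2 to Hk1 ratio were KPY-Setd2KO replicates 5 to 8.

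In 2 of the remaining ratios, tumors with low and high leukocyte-marker scores lay apart. Pfkp to Pfkl was 0.103 to 0.189-fold in the 7 tumors with low scores and 0.621 to 1.46-fold in the 7 with high scores. Aldoa exceeded Aldoc by 38.7 to 101-fold in the former and by 6.60 to 14.8-fold in the latter, with no overlap. Eno1 exceeded Eno2 by 231 to 3252-fold, with the highest ratios in KPY-Ctrl replicates 1 and 2 and the lowest in KPY-Ctrl replicate 3. Eno2 had only 5 to 106 counts per tumor, so these folds are imprecise. In KPY-Ctrl replicate 1, near-identical gene copies, described below, held 42.4% of the joint counts of Eno1 and its copies. Ldha to Ldhb ran from 6.94-fold in KPY-Ctrl replicate 4 to 43.8-fold in KPY-Setd2KO replicate 4, and high and low scores were mixed along that range. Slc16a1 exceeded Slc16a3 in 13 of the 14 tumors, by up to 8.05-fold in KPY-Ctrl replicate 5, and was at 0.885-fold in KPY-Setd2KO replicate 6. These are descriptions of individual tumors and were not tested against the score.

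**Figure D4:**
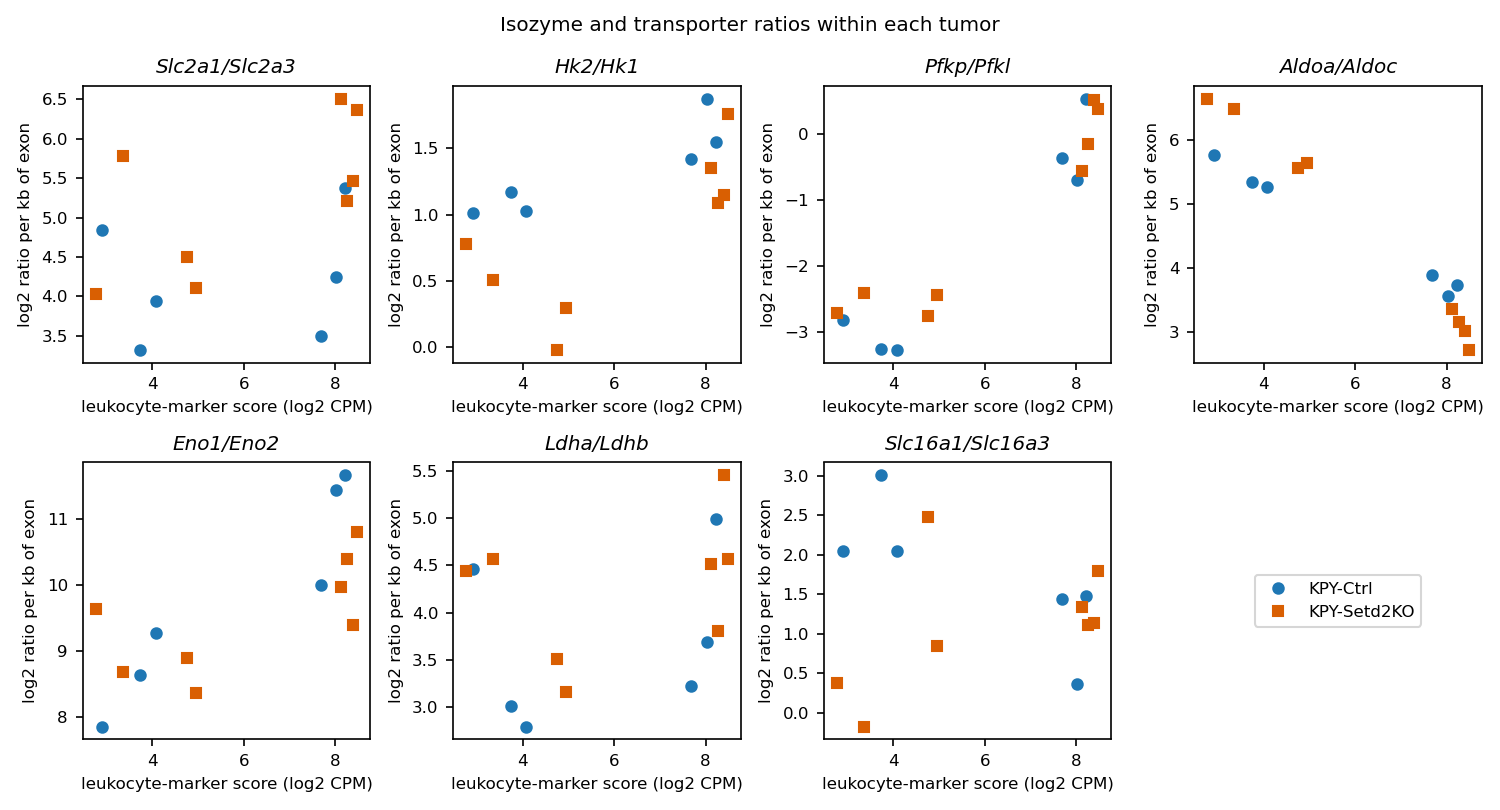
Each panel plots the log2 ratio per kb of exon of 2 genes on the vertical axis against the leukocyte-marker score (mean log2 CPM) on the horizontal axis, with 1 point per tumor, blue circles for KPY-Ctrl and orange squares for KPY-Setd2KO. Pfkp/Pfkl and Aldoa/Aldoc fall into separate blocks at low and high scores, whereas Ldha/Ldhb and Slc16a1/Slc16a3 do not.

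The third comparison asked whether members moved with other genes of the response to low oxygen. A hypoxia score was the mean log2 CPM of 18 such genes, among them Vegfa, Bnip3, Egln3 and P4ha1, none of them a member. It lay between 3.66 and 4.73 in KPY-Ctrl and between 3.29 and 5.20 in KPY-Setd2KO (mean difference 0.12, two-sided exact permutation test, p = 0.725). The 7 tumors with low leukocyte-marker scores had hypoxia scores of 4.38 to 5.20 and the other 7 had 3.29 to 4.73. With genotype and the leukocyte-marker score in the model, no member was called by edgeR at the adjusted threshold, and 1 gene of all did (0.00594%). At an unadjusted p under 0.05, 11 of the 34 passed (32.4%), all with positive slopes, beside 6.13% of all genes and 4.96% with positive slopes. DESeq2 called 4 of the 34, Slc2a1, Tpi1, Pgk1 and Ldha, beside 118 of all genes (0.337%, and 0.311% with positive slopes). Limma voom called none and, with quality weights, 6 of the 34, beside 0.962% of all genes. The median slope was 0.32 over members and 0.02 over all genes, and 25 of the 34 slopes were above 0.

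In edgeR, the median slope and the count at an unadjusted p leaned on 1 library. The DESeq2 and limma voom fits were not repeated without single tumors, so their counts were not checked for this. Without KPY-Ctrl replicate 2 the edgeR median over members was 0.07, beside 0.03 over all genes, and 6 of the 34 members had an unadjusted p under 0.05, beside 4.43% of all genes. The slope of Eno1 was then -0.09 in place of 0.56, that of Slc2a3 0.30 in place of 1.09, that of Pgam1 0.24 in place of 0.44 and that of Hk1 0.28 in place of 0.43. Without any 1 of the other tumors the median stayed between 0.29 and 0.40. The slopes of Slc2a1, Tpi1, Pgk1 and Ldha were 0.94, 0.77, 0.84 and 0.54 without KPY-Ctrl replicate 2.

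The promoters of the genes that DESeq2 called are shown for the letters that the hypoxia-inducible factor is known to recognise. RefSeq starts of GRCm38.p6 were matched for 33 of the 34 members, with 50 starts in all, and the 250 bases before each start were searched on both strands for ACGTG and GCGTG. At least 1 of them was found before 39 of the 50 member starts (78.0%), beside 38.6% of 32851 starts of all genes. Starts of the same gene can share a site, as for Eno1 and Aldoa. Counted by gene, 29 of the 33 members (87.9%) had at least 1, beside 41.5% of all genes. Both cores hold the letters CG, and the promoters were not matched for base composition. ACGTG alone was before 40.0% of member starts and 16.6% of all starts, and GCGTG before 52.0% and 28.2%. The E-box CACGTG, which holds ACGTG and is read by other factors, was before 7 member starts and 6.02% of all starts. A match of these letters is a description of the sequence and not a binding site. In the stretches below, on the plus strand of GRCm38.p6, capitals mark the matches on either strand: chr4:119108669-119108728 before a RefSeq start of Slc2a1, chr7:46845741-46845789 before one of Ldha and chrX:106186935-106186988 before that of Pgk1. RefSeq starts differ from the GENCODE gene starts printed here: the Ldha stretch lies inside the GENCODE span of Ldha but in no GENCODE exon, and 18 bases of the Slc2a1 stretch are GENCODE exon.
Slc2a1: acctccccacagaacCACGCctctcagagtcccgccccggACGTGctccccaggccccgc
Ldha: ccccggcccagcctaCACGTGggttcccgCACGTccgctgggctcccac
Pgk1: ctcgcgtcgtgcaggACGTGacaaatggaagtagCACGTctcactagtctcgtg

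The Slc2a1 stretch holds 1 match of each kind, the Ldha stretch an E-box and a further ACGTG, and the Pgk1 stretch ACGTG once on each strand. Tpi1 had neither core in its 250 bases, which says only that these letters are not in that window. Slc2a1 (ENSMUSG00000028645.11, chromosome 4, 119108711 to 119137983, plus strand) had its 3 highest values in KPY-Setd2KO replicates 6 and 5 and KPY-Ctrl replicate 2, at 253, 192 and 131 CPM, and these tumors had hypoxia scores of 5.20, 5.06 and 4.73. Its slope was 1.07 log2 units per unit of the hypoxia score (standard error 0.24, adjusted p = 0.254 in the quasi-likelihood test of edgeR and 0.0396 in DESeq2).

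Tpi1 (ENSMUSG00000023456.14, chromosome 6, 124810586 to 124814296, minus strand) ran from 169.7 CPM in KPY-Setd2KO replicate 2, the tumor with the lowest hypoxia score, to 726 CPM in KPY-Setd2KO replicate 6, the tumor with the highest. Its slope was 0.83 (standard error 0.16, adjusted p = 0.156 in edgeR and 0.000263 in DESeq2). Pgk1, the phosphoglycerate kinase on the X chromosome (ENSMUSG00000062070.12), ran from 201 to 343 CPM in KPY-Ctrl and from 160.5 to 324 CPM in KPY-Setd2KO, with a slope of 0.76 (standard error 0.14, adjusted p = 0.156 in edgeR and 0.00192 in DESeq2). Its lowest values were in KPY-Setd2KO replicates 2 to 4, whose hypoxia scores of 3.29 to 3.87 were among the lowest. In the same 3 tumors, reads assigned to near-identical copies of Pgk1 made up 34.5% to 40.7% of the joint counts, the 3 highest shares, and the fit with copies added gave Pgk1 a slope of 0.74. Ldha (ENSMUSG00000063229.15, chromosome 7, 46841475 to 46855627, plus strand) ran from 766 to 1372 CPM and from 664 to 1577 CPM, with a slope of 0.51 (standard error 0.15, adjusted p = 0.438 in edgeR and 0.0419 in DESeq2).

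The other 7 members with an unadjusted p under 0.05 had slopes of 1.26 (Slc16a3), 1.09 (Slc2a3), 0.80 (Pfkm), 0.59 (Pfkl), 0.56 (Eno1), 0.44 (Pgam1) and 0.43 (Hk1). Both glucose transporters, 4 of the 9 triose genes and 2 of the 4 lactate genes were among the 11. None of the 4 pentose phosphate genes and none of the 3 pyruvate dehydrogenase kinases was, and their slopes ran from -0.23 (Taldo1) to 0.46 (Pdk1). Hif1a itself, whose product is known to be controlled mainly as protein, had a slope of 0.46 (standard error 0.24, unadjusted p = 0.074 in the quasi-likelihood test of edgeR).

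**Figure D5:**
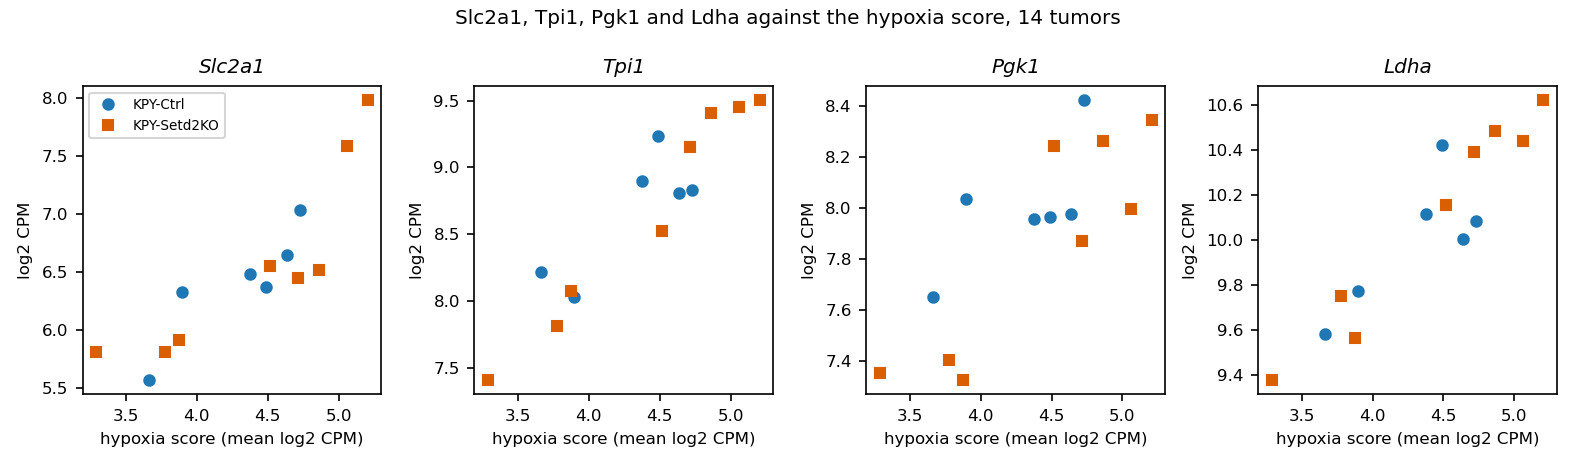
The 4 panels plot log2 CPM of Slc2a1, Tpi1, Pgk1 and Ldha on the vertical axes against the hypoxia score (mean log2 CPM of 18 genes) on the horizontal axes, 1 point per tumor, blue circles for KPY-Ctrl and orange squares for KPY-Setd2KO. The lowest value of each gene is in a tumor with a score under 4, and the highest values of Slc2a1, Tpi1 and Ldha are in the tumor with a score of 5.20, without adjustment for the leukocyte-marker score.

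Several members have near-identical copies elsewhere in the genome, and reads shared with them could have been split. Copies of at least 90% identity over at least 70% of their length were found for 11 members, 207 in all. For Pgk1, 27.3% of the summed counts of gene and copies were assigned to copies, from 11.1% in KPY-Ctrl replicate 1 to 40.7% in KPY-Setd2KO replicate 3. The share was 3.64% for Tpi1, 3.15% for Gapdh with its 175 copies and 2.63% for Ldhb.

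Enolase showed a sharper split. Eno1b, a protein-coding copy of Eno1, was at 0 to 374 CPM. Copies of Eno1 took 37.5% to 42.4% of the joint counts in KPY-Ctrl replicate 1 and KPY-Setd2KO replicates 1 and 4, and at most 0.286% in the other 11 tumors. Eno1 alone ran from 488 to 1115 CPM in KPY-Ctrl and from 428 to 1059 CPM in KPY-Setd2KO, and with the copies added the lowest values were 577 and 626 CPM. With the copies added, the leukocyte-marker slope of Eno1 was 0.006 in place of -0.06, and its hypoxia slope 0.79 in place of 0.56. With copies added, 13 members had an unadjusted p under 0.05 for the hypoxia slope in edgeR, beside 5.7% of all genes, and none was called. Whether the assignment to Eno1b reflects its RNA or shared reads was not tested.

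A wider list of 57 hexose genes outside the 34 was read in the same fits, of which 50 were tested. None was called between genotypes by edgeR, DESeq2 gave Slc2a2 and Slc37a4 adjusted p-values of 0.000247 and 0.0116, and at an unadjusted p under 0.05 none was higher and 7 were lower in KPY-Setd2KO, beside 6.93% and 6.8% of all genes, with a median log2 fold change of -0.08. The smallest p-values belonged to Slc2a2, the liver glucose transporter GLUT2, at -4.69 (adjusted p = 0.118), Slc37a4, the glucose 6-phosphate transporter, at -0.43 (adjusted p = 0.168), and Pdp2, a pyruvate dehydrogenase phosphatase, at -0.65 (adjusted p = 0.214 in the quasi-likelihood test of edgeR). Slc2a2 was at 0.191 to 17.7 CPM in KPY-Ctrl, with a median of 1.00, and at no more than 0.419 CPM in KPY-Setd2KO, so the groups overlapped at low levels. Slc37a4 was at 11.7 to 17.0 CPM in KPY-Ctrl and at 9.72 to 11.6 CPM in KPY-Setd2KO, with no overlap. The share of all genes without overlap was not counted. With the leukocyte-marker score in the model, 4 of the 50 were lower and none higher in edgeR, beside 2.37% and 3.14% of all genes, namely Slc2a2, Slc37a4, Hkdc1 and Gys1. Along the leukocyte-marker score 16 of the 50 rose and 17 fell, with the largest slopes in Eno1b (1.76), Slc2a6, a transporter of lysosomes in macrophages (0.73), and Pygl, the liver glycogen phosphorylase (0.65). The Eno1b slope had a standard error of 0.46, and its median was 0.197 CPM in KPY-Ctrl and 0.626 CPM in KPY-Setd2KO. Copies of Eno1 exceeded 2.30 CPM only in the 3 tumors named above, so this slope describes those tumors.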

How the data were processed

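The deposited table, made by the authors, holds estimated counts (whole numbers, not normalized) for Ensembl genes, and the submitters' processing notes name Salmon 0.8.2 and GRCm38.p5. The largest values in the deposited table carry 3 significant digits, while the highest count of a member in a tumor was 154823 (Gapdh). All 14 columns were matched to a tumor by name. Symbols, coordinates and exon lengths came from GENCODE M21, which matched 52403 of 52550 identifiers. Counts were rounded, filtered with filterByExpr, scaled by TMM and fitted with edgeR 4.0.16 in R 4.3.3 (quasi-likelihood test, robust, Benjamini-Hochberg over all genes tested, threshold 0.05). Alternatives used DESeq2 1.42.0 and limma 3.58.1, other scalings and filters, the replicate number as a block, and leaving out each tumor. Log2 CPM used a prior count of 2 and ratios 0.5 added counts. Standard errors of edgeR fits are the absolute log2 change divided by the square root of the F statistic. They therefore restate the test and are not a separate measure of spread. Copies were found with minimap2 2.31-r1302. The procedure was tested on simulated data.

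The rule for the members uses gene symbols and no measured value, but the members, lists and tests were chosen with earlier results of these data known. Named members were, per role, those with the smallest genotype p and the largest leukocyte-marker slope, those called in an adjusted fit, and the ratio pairs. From the wider list, 3 genes by p and 3 by slope were named. Eno1b, the comparison with copies added and the fits of Hk1 without single tumors were chosen after the data were seen. A further allele that both groups share is not reported here.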

Additional observations from a re-analysis of the deposited data

Results flagged for a closer look

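Among 82 groups of values examined (each member and each ratio in each genotype), 1 held a tumor set far from the others. The usual rate of 1 in 20 by chance assumes values from 1 normal population. It does not apply here, because each genotype held tumors with low and with high leukocyte-marker scores. The flagged value was Eno1 in KPY-Ctrl replicate 2, at 10.12 log2 CPM, where the next KPY-Ctrl tumor was at 9.35 and the lowest at 8.93. The gap took 0.651 of the range, above the critical value of Dixon's test. With the counts of near-identical copies added, a choice made after the data were seen, the next tumor was at 9.73 and the lowest at 9.17, the gap took 0.417 of the range, and the tumor was no longer set apart. The same tumor had the highest Gapdh (4298 CPM), Pgam1 (421 CPM), Pkm (1627 CPM) and Slc2a1 (131 CPM) of the KPY-Ctrl tumors.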

How the results depend on the processing

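For the genotype comparison, the count of all genes called was 688 with DESeq2, 8340 with limma voom and quality weights (49.5% of genes), 927 with the leukocyte-marker covariate and 2236 with that covariate in DESeq2. It was 0 to 1 over the fits that left out 1 tumor, the 1 coming without KPY-Ctrl replicate 6. Of the members, 14, 1 and 3 were called with quality weights, with the covariate and with the covariate in DESeq2. Signs changed with quality weights for Slc2a1 (-0.21), Hk1 (-0.24), Hk2 (-0.34), Gpi1 (0.34), Pfkl (-0.37), Pfkfb4 (0.70), Tpi1 (-0.50), Eno2 (-0.67), Ldha (-0.16) and Pdk1 (0.020). They changed with library size scaling for Hk2 (-0.028), Gapdh (-0.094), G6pdx (-0.073), Tkt (-0.0077) and Taldo1 (-0.024), with limma voom for Tpi1 (-0.0085) and Pdk1 (0.045), without a filter for Gapdh (-0.024), and with the covariate for G6pdx (-0.0010, and -0.0025 in DESeq2). The cause was not tested.

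For the leukocyte-marker slope, signs changed with library size scaling for Pfkfb3 (-0.041) and Gapdh (-0.011), with the copies added for Eno1 (0.0064), and for Hif1a with the macrophage score (0.0099) and without the 2 tumors farthest from the median score (0.022). For the hypoxia slope, all genes called numbered 2 with library size scaling and with limma voom, 5 without a filter, 118 with DESeq2, 162 with quality weights, 5337 without the leukocyte-marker covariate, and 0 under a minimum of 10 counts per tumor, after adding the copies and without the 2 farthest tumors, and 0 to 3 with 1 tumor left out. Members called were 4 with DESeq2, 6 with quality weights and 16 without that covariate.

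Whether the replicate numbers pair the tumors was not settled. Same-numbered tumors correlated from -0.66 to 0.66 in their deviations from the group means. The correlation was positive for numbers 1, 2 and 5, whose tumors lay in the same range of leukocyte-marker scores. It was negative for numbers 3, 4 and 6, whose tumors lay in different ranges, so this check cannot separate pairing from the score. Of the 14 tumors, 3 correlated best with their own number, but KPY-Setd2KO replicates 7 and 8 had no KPY-Ctrl tumor of their number. With the replicate number as a block, the leukocyte-marker slope called 5068 genes and 15 members, and signs changed for the genotype change of Pfkl (-0.012), Tpi1 (-0.22), Ldha (-0.014) and Pdk1 (0.066) and for the slopes of Pfkfb3 (-0.056) and Fbp1 (-0.054). It took the slopes of Slc2a1, Slc2a3, Gpi1, Pfkm, Pfkfb2, Aldoa, Eno2, Ldhb and Pdk3 past 0.05 and brought that of Pdk1 under it.

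Leaving out 1 tumor turned the genotype sign of Eno2 (-0.051 to 0.72), G6pdx (-0.028 to 0.21), Gapdh (-0.065 to 0.13), Gpi1 (-0.18 to 0.016), Hk2 (-0.12 to 0.17), Pdk1 (-0.20 to 0.12), Taldo1 (-0.058 to 0.44), Tkt (-0.042 to 0.32) and Tpi1 (-0.0022 to 0.25). It also turned the leukocyte-marker slope of Hif1a (-0.033 to 0.024), Pfkfb3 (-0.0010 to 0.067) and Pgam1 (-0.040 to 0.0017), the hypoxia slope of Eno1 (-0.087 to 0.78), and the genotype difference of the log2 ratios Aldoa/Aldoc (-0.32 to 0.24) and Eno1/Eno2 (-0.69 to 0.074). None of these values passed its threshold with all tumors included. Without KPY-Ctrl replicate 2 the leukocyte-marker slopes of Eno1 (-0.10) and Pdk1 (-0.12) passed the threshold.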
